A study of Mus musculus with 6 samples.

Results

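The genes described here are 53 components of the machinery that carries a cell through G2 and mitosis, chosen by name: cyclins and entry kinases, the chromosomal passenger complex, the spindle checkpoint, the anaphase trigger, kinetochore proteins, kinesins, spindle assembly factors, cytokinesis factors and the proteins that shape mitotic chromosomes. The choice was made with earlier results of these data known. All 53 were among the 22672 genes listed for each library and all 53 passed the filter on low values, out of 10594 genes that did. RNA was sequenced from BV2 cells, an immortalized mouse microglial line, in 3 libraries labelled shNumb-ctr and 3 labelled shscr-ctr, with no treatment, age or clone in the labels and with the suffix ctr not spelled out. By the usual reading shNumb is a hairpin against Numb, an adaptor protein that restrains Notch receptors, and shscr a scrambled hairpin. The labels do not say that libraries of a group came from separate cultures, so p-values measure the spread between these libraries, which may be technical.

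Entry into mitosis is driven by the kinase Cdk1 bound to A- and B-type cyclins, and the exit by the anaphase-promoting complex, a ubiquitin ligase that destroys cyclin B and securin once every kinetochore is attached to the spindle. The genes of this machinery are transcribed mainly in late S phase, G2 and mitosis, through the MuvB complex with B-Myb and then FoxM1, and are shut off in resting cells by the DREAM complex. Many of their promoters hold a cell cycle genes homology region, abbreviated CHR, often with CCAAT boxes bound by the factor NF-Y. In bulk RNA such as this, fewer cells in those phases and less RNA per cell cannot be told apart.

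The upstream sequences of 6 of the genes show those elements, 4 from genes that were lower in the libraries labelled shNumb-ctr (Cdc20, Kif11, Kif22 and Top2a) and 2 from genes that did not pass the test (Ube2c and Cdk1). They were picked after the motif search from the 11 genes with a CHR in the last 50 bases before the transcription start, which are 4 genes that fell, all shown, and 7 that did not pass. Of the 7, Cks1b, Espl1, Ncapg, Prc1 and Bub3 are not shown, so the choice does not reflect how often a CHR stood before genes of either kind. Each line gives the 200 bases before the start annotated by RefSeq (build GRCm38.p6), 5′ to 3′ on the gene's strand, and capitals mark TTTGAA (the usual CHR), TTCGAA (a variant, also counted as a CHR) and CCAAT, each on either strand.
Cdc20, chr4:118437344-118437543, minus strand: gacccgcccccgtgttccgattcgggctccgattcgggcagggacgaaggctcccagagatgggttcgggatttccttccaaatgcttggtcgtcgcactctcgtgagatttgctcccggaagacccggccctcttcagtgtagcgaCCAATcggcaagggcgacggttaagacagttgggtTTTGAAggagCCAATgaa
Kif11, chr19:37376182-37376381, plus strand: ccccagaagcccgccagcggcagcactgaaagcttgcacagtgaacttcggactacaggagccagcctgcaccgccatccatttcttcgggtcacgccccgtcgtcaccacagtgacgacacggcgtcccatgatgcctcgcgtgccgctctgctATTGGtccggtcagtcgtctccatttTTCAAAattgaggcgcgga
Kif22, chr7:127042421-127042620, minus strand: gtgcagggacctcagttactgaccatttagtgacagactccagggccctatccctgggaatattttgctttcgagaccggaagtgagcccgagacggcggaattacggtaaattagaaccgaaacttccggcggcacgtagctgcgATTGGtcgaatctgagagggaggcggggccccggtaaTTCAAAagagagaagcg
Top2a, chr11:99024190-99024389, minus strand: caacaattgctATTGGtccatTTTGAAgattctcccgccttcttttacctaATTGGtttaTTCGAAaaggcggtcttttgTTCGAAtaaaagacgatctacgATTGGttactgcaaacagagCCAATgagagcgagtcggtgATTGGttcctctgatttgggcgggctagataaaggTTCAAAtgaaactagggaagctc
Ube2c, chr2:164769729-164769928, plus strand: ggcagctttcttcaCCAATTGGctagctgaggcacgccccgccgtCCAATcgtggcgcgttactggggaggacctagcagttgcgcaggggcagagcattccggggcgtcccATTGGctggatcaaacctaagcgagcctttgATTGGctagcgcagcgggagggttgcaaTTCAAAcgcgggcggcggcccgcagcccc
Cdk1, chr10:69352913-69353112, minus strand: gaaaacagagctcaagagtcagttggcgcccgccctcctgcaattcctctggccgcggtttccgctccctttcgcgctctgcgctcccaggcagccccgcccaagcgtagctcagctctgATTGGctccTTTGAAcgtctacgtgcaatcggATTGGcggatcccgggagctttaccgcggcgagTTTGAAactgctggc

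In Cdc20 the CHR begins 18 bases before the start, with CCAAT boxes that begin 53 and 8 bases before it. The CHR nearest to the start begins 19 bases before it in Kif11, 17 in Kif22, 23 in Top2a, 29 in Ube2c and 15 in Cdk1. RefSeq promoters were matched by symbol for 44 of the 53 genes and for 8267 of the genes tested, and the 250 bases before the start were searched. One of the CHR motifs was found for 19 of the 44 mitotic genes (43.2%), against 14.9% of the tested genes. Within the last 50 bases before the start, 11 of the 44 (25.0%) held one, against 2.20% of the tested genes. A CCAAT box was found for 34 of the 44 (77.3%) against 41.0% of the tested genes, and at least 2 of them for 22 of the 44 against 15.9% of the tested genes. Over all 32851 RefSeq promoters in the table, 17.1% held a CHR motif and 33.8% a CCAAT box. The variant TTCGAA reads the same on both strands and was counted once, and none of the 3 motifs contains another, although neighbouring matches can share bases.

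For genes that fell and genes that did not pass, a CHR motif in the last 50 bases stood before 4 of 20 and 7 of 24 (29.2%). Anywhere in the 250 bases, a CHR motif stood before 9 of the 20 genes called lower (45.0%) and before 10 of the 24 that did not pass (41.7%). A CCAAT box stood before 16 of the 20 (80.0%) and before 18 of the 24. These shares were not tested against each other, and a match describes the letters in this window, no more.

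The hairpin's named target did not follow its label. In shNumb-ctr, Numb had 38.0, 37.2 and 39.98 FPKM, and in shscr-ctr 35.8, 36.7 and 36.1 FPKM (log2 fold change 0.08, SE 0.036, limma adjusted p = 0.137). All 3 shNumb-ctr values lay above all 3 shscr-ctr values, so every direction given refers to how the libraries were labelled, not to a measured loss of Numb. The unit FPKM counts fragments per transcript length and library size, so that levels of different genes can be compared. Summed values were 453082 to 455561 per library in shNumb-ctr and 451077 to 453631 in shscr-ctr, and the sequencing depth is unknown. Of 12 microglial and macrophage markers, 11 averaged at least 1 FPKM. The sum of the 12 was 1633 to 1768 FPKM in shNumb-ctr and 1531 to 1565 in shscr-ctr. Of the 11 markers tested, 6 were called higher (54.5%) and 2 lower (18.2%), against 8.11% and 10.7% of all genes tested. Their part in the results was not tested. P2ry12 averaged under 1 FPKM and Tmem119 1.48 FPKM in shNumb-ctr and 1.79 in shscr-ctr. Of the markers of other cells, Rbfox3, Snap25 and Syt1 of neurons, Gfap, Aqp4 and Aldh1l1 of astrocytes, Mog and Mag of oligodendrocytes, and Pdgfra, Dcn and Lum of fibroblasts were listed at 0 in all 6 libraries, 11 of the 20 such markers. The other 9 were above 0 in at least 1 library, and of these only Mbp of oligodendrocytes reached the filter, at 1.45 FPKM in shNumb-ctr and 1.48 in shscr-ctr. The 5 oligodendrocyte markers summed to 2.12 to 2.37 FPKM in shNumb-ctr and 1.70 to 2.31 in shscr-ctr, and the 5 of each other cell type to under 1 FPKM in every library.

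As a group, RNA of the mitotic genes was modestly lower in the libraries labelled shNumb-ctr. Of the 53 genes, 23 fell, 0 rose and 30 did not pass (limma, adjusted p under 0.05 over the 10594 genes tested). The background was 10.7% of all tested genes called lower and 8.11% called higher. The 23 genes that fell were at 0.780 to 0.917 of their shscr-ctr mean, with log2 fold changes of -0.33 to -0.12. The median log2 fold change on the log2(FPKM + 1) scale was -0.16 over the 53 genes and -0.021 over all genes tested, and 49 of the 53 were negative. In 38 of the 53 all 3 shNumb-ctr libraries lay below all 3 shscr-ctr libraries, a pattern seen in 23.6% of all tested genes, and in 0 of the 53 did all 3 lie above. Of those 38, 15 did not pass the test.

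**Figure D1:**
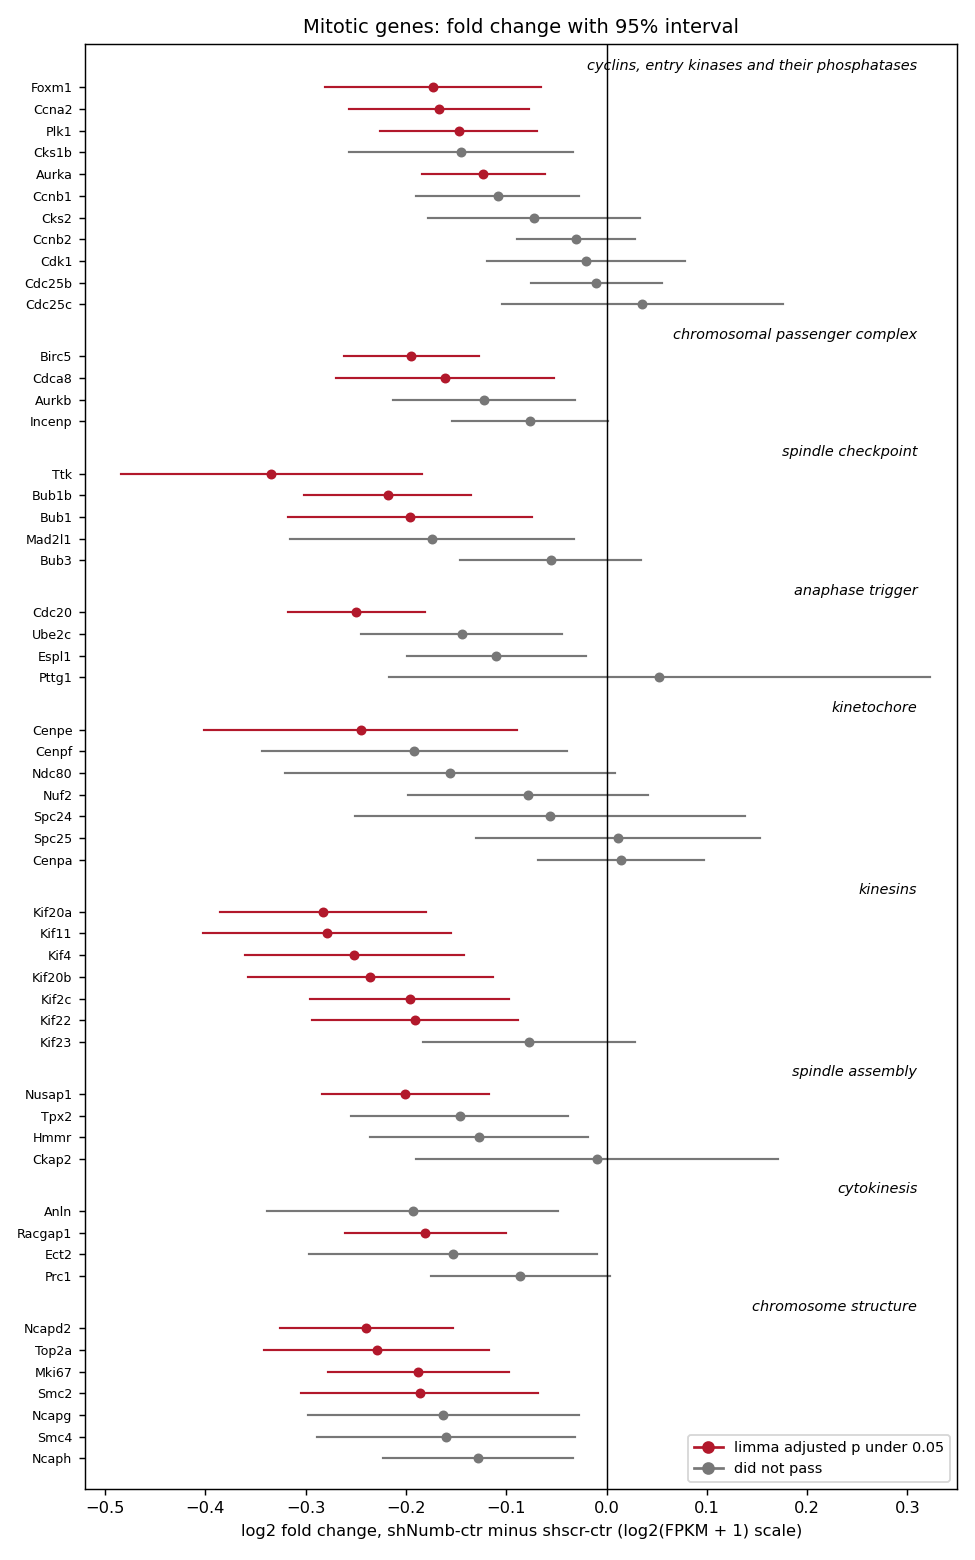
Log2 fold change (shNumb-ctr minus shscr-ctr, log2(FPKM + 1) scale, x axis) of the 53 mitotic genes, in rows by function, with points for the estimate and lines for the 95% interval; red marks a limma adjusted p under 0.05. The 23 red genes all lie left of 0, between -0.33 and -0.12. They include 6 of the 7 kinesins and 1 of the 7 kinetochore genes, a difference that was not tested.

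The difference between the groups could be seen library by library. The mean deviation of the 53 genes from their own 6-library means was -0.066, -0.035 and -0.11 (log2) in shNumb-ctr replicates 1, 2 and 3, against 0.095, 0.052 and 0.067 in shscr-ctr replicates 1, 2 and 3. Over all genes tested the same means ran from -0.013 to 0.0021 in shNumb-ctr and from -0.00088 to 0.0078 in shscr-ctr. Of the 53 genes, 38 had their lowest value in shNumb-ctr replicate 3 and 31 their highest in shscr-ctr replicate 1, so these libraries stand at the ends of the range. The count of genes called lower was 15 and 12 when shNumb-ctr replicate 1 or 3 was left out, 10 and 14 when shscr-ctr replicate 1 or 3 was, and 23 and 22 when replicate 2 of shNumb-ctr or of shscr-ctr was. Over all genes tested the share called lower fell as well, from 10.7% to 5.92% and 5.77%, 4.41% and 5.98%, and 8.26% and 8.03% in the same order. The median log2 fold change stayed between -0.17 and -0.13 in those 6 fits, and 0 genes were called higher in any of them. Summed over the 53 genes, mitotic RNA made up 0.343%, 0.3497% and 0.335% of the listed FPKM in shNumb-ctr replicates 1, 2 and 3, and 0.386%, 0.375% and 0.377% in shscr-ctr replicates 1, 2 and 3, with no overlap.

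**Figure D2:**
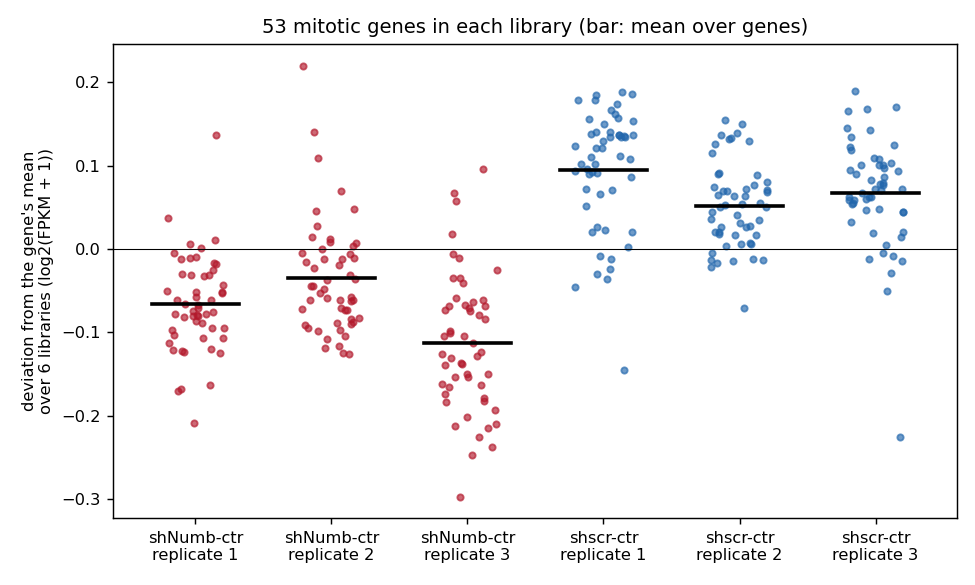
Deviation of each of the 53 mitotic genes (points) from its own mean over the 6 libraries, in log2(FPKM + 1) units (y axis), by library (x axis); black bars are means over genes. The bars lie at -0.066, -0.035 and -0.11 in the shNumb-ctr libraries and at 0.095, 0.052 and 0.067 in the shscr-ctr libraries.

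Among the regulators of entry, 4 of 11 fell (36.4%, against 10.7% of all genes tested) and 0 rose. Aurka, the kinase of centrosome maturation, was at 53.4, 52.97 and 52.5 FPKM in the shNumb-ctr libraries (replicates 1, 2 and 3, the order used throughout), against 57.3, 58.1 and 57.8 in shscr-ctr. All 3 shNumb-ctr libraries were lower, by a log2 fold change of -0.12 (SE 0.026, limma adjusted p = 0.0174). Plk1, the polo-like kinase that activates Cdk1, was at 32.9, 32.8 and 32.7 FPKM in shNumb-ctr and 37.3, 35.1 and 36.9 in shscr-ctr, again without overlap (log2 -0.15, SE 0.034, limma adjusted p = 0.0222). Ccna2, cyclin A2, was at 22.8, 21.6 and 22.4 FPKM in shNumb-ctr and 26.1, 24.6 and 24.7 in shscr-ctr (log2 -0.17, SE 0.039, limma adjusted p = 0.0230). Foxm1, the transcription factor of late cell cycle genes, averaged 10.8 ± 0.373 FPKM in shNumb-ctr and 12.3 ± 0.479 in shscr-ctr (SD, n = 3 each, log2 -0.17, limma adjusted p = 0.0375). All 4 calls were lost in some of the fits that left out a library. In those 6 fits fewer of all genes were called lower too, 465 to 869 against 1130. Aurka lost its call without shNumb-ctr replicate 3 or shscr-ctr replicate 1 or 3 (limma adjusted p = 0.0510 to 0.0556). Plk1 lost its call without shNumb-ctr replicate 1 or 3 or shscr-ctr replicate 1 or 3 (limma adjusted p = 0.0619 to 0.0776). Ccna2 lost its call without shNumb-ctr replicate 2 or 3 or shscr-ctr replicate 1 or 3 (limma adjusted p = 0.0511 to 0.0775). Foxm1 lost its call without any one of the 6 libraries (limma adjusted p = 0.0508 to 0.119).

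Cdk1 itself and the B-type cyclins did not pass the test. Cdk1 was at 16.3, 16.98 and 17.2 FPKM in shNumb-ctr and 16.8, 17.8 and 16.6 in shscr-ctr, and the groups overlapped (log2 -0.021, 95% interval -0.12 to 0.078, limma adjusted p = 0.760). Its partner Ccnb2, cyclin B2, was at 64.2, 63.8 and 63.4 FPKM in shNumb-ctr and 65.4, 64.7 and 65.4 in shscr-ctr, without overlap and with a log2 fold change of -0.031 (limma adjusted p = 0.429). Ccnb1, cyclin B1, was at 46.3, 46.5 and 45.7 FPKM in shNumb-ctr and 48.9, 48.6 and 52.2 in shscr-ctr (log2 -0.11, limma adjusted p = 0.0662), but 42.2% of its transcript windows are found in another gene as well, mainly the pseudogene Ccnb1-ps, which makes its level uncertain. Cdc25b and Cdc25c, phosphatases that activate Cdk1, had log2 fold changes of -0.010 and 0.036 with limma adjusted p of 0.821 and 0.711. The sign of Cdc25b changed to a log2 of 0.0078 after median-of-ratios rescaling and 0.0077 after quantile normalization, and that of Cdk1 to 0.0010 after quantile normalization. Cks1b and Cks2, small subunits of the cyclin-dependent kinases, had log2 fold changes of -0.15 and -0.073 (limma adjusted p = 0.0730 and 0.299). Cdc25c and Cks2 are uncertain too, at 22.4% and 29.2% shared windows.

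In the chromosomal passenger complex, which corrects faulty spindle attachments and later directs cytokinesis, 2 of 4 genes fell (50%, against 10.7% of all genes tested) and 0 rose. In all 4 every shNumb-ctr library lay below every shscr-ctr library, a pattern of 23.6% of all tested genes. Birc5, survivin, was at 46.4, 45.3 and 44.4 FPKM in shNumb-ctr and 52.2, 51.8 and 52.2 in shscr-ctr. The shscr-ctr libraries lay within 1 FPKM of each other, and the log2 fold change was -0.19 (SE 0.029, limma adjusted p = 0.00505). Cdca8, borealin, averaged 36.1 ± 0.436 FPKM in shNumb-ctr and 40.6 ± 2.72 in shscr-ctr (SD, n = 3 each, log2 -0.16, limma adjusted p = 0.0493). Cdca8 lost its call without shNumb-ctr replicate 1, 2 or 3 or shscr-ctr replicate 1 or 3 (limma adjusted p = 0.0858 to 0.112). The kinase Aurkb was at 37.04, 37.5 and 38.1 FPKM in shNumb-ctr and 43.2, 40.1 and 39.6 in shscr-ctr and missed the threshold (log2 -0.12, limma adjusted p = 0.0650). The ratio of its paralog Aurka to Aurkb was 1.41 ± 0.032 in shNumb-ctr and 1.41 ± 0.074 in shscr-ctr (SD, n = 3 each). The scaffold Incenp had a log2 fold change of -0.076 (limma adjusted p = 0.147).

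Of the 5 spindle checkpoint genes, which hold anaphase until every kinetochore is attached, 3 fell (60%, against 10.7% of all genes tested) and 0 rose. Ttk, the kinase Mps1 that starts checkpoint signalling, had the lowest fold change of the 53 genes, at 10.03, 11.1 and 9.08 FPKM in shNumb-ctr and 13.1, 12.7 and 12.9 in shscr-ctr. Every shNumb-ctr library was below every shscr-ctr library, at 0.780 of the shscr-ctr mean (log2 -0.33, SE 0.065, limma adjusted p = 0.0127). Bub1b, the checkpoint protein BubR1, was at 44.5, 45.7 and 44.4 FPKM in shNumb-ctr and 53.9, 50.04 and 53.3 in shscr-ctr, also without overlap (log2 -0.22, SE 0.036, limma adjusted p = 0.00708). Bub1, its relative at the kinetochore, was at 32.1, 33.7 and 29.05 FPKM in shNumb-ctr and 36.9, 35.4 and 36.6 in shscr-ctr (log2 -0.20, SE 0.053, limma adjusted p = 0.0375). Bub1 lost its call without shNumb-ctr replicate 1 or 3 or shscr-ctr replicate 1, 2 or 3 (limma adjusted p = 0.0579 to 0.106). Mad2l1, the Mad2 protein that inhibits Cdc20, was at 10.95, 12.6 and 11.5 FPKM in shNumb-ctr and 13.7, 13.8 and 12.4 in shscr-ctr, with overlap (log2 -0.17, limma adjusted p = 0.0845), and it passed without shNumb-ctr replicate 2 (limma adjusted p = 0.0496). Bub3, which also has roles outside mitosis, had a log2 fold change of -0.056 (limma adjusted p = 0.3497).

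Of the 4 genes of the anaphase trigger 1 fell (25%, against 10.7% of all genes tested) and 0 rose. That was Cdc20, the activator of the anaphase-promoting complex, which had the smallest adjusted p of the 53 genes. Cdc20 was at 48.8, 50.7 and 50.8 FPKM in shNumb-ctr and 59.1, 60.4 and 59.7 in shscr-ctr. The groups did not overlap (log2 -0.25, SE 0.030, limma adjusted p = 0.00208). Ube2c, the ubiquitin-conjugating enzyme of that complex, had the highest level of the 53 genes, at 106, 102 and 101 FPKM in shNumb-ctr and 121, 113 and 108 in shscr-ctr. Its groups did not overlap, but it missed the threshold (log2 -0.14, SE 0.044, limma adjusted p = 0.0541). Ube2c passed in 5 of 15 alternatives, among them the fit without shscr-ctr replicate 3 (limma adjusted p = 0.0317). The others were a stricter filter, rescaling to an equal sum, a replicate block and a length and GC correction. Espl1, the protease separase, had a log2 fold change of -0.11 (limma adjusted p = 0.0841). Pttg1, the separase inhibitor securin, had the largest SE and the highest fold change of the 53, at 17.4, 23.8 and 21.3 FPKM in shNumb-ctr and 21.3, 21.5 and 17.2 in shscr-ctr, with overlap (log2 0.053, SE 0.117, limma adjusted p = 0.778).

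Kinetochore genes were the group with the lowest share of calls, 1 of 7 lower and 0 higher. That share of 14.3% lower stood near the 10.7% of all genes tested. Cenpe, a kinesin that carries chromosomes to the spindle equator, was at 7.39, 7.06 and 6.23 FPKM in shNumb-ctr and 8.34, 7.91 and 8.78 in shscr-ctr without overlap (log2 -0.25, SE 0.068, limma adjusted p = 0.0402). Cenpe lost its call without shNumb-ctr replicate 2 or 3 or shscr-ctr replicate 1, 2 or 3 (limma adjusted p = 0.0505 to 0.118). Cenpf, a large protein of the outer kinetochore, had the lowest level of the 53 genes, at 4.81, 5.04 and 4.27 FPKM in shNumb-ctr and 5.49, 5.31 and 5.73 in shscr-ctr, and missed the threshold (log2 -0.19, limma adjusted p = 0.0789). Cenpa, the histone H3 variant that marks centromeres, was at 71.3, 73.8 and 76.5 FPKM in shNumb-ctr and 73.6, 74.9 and 70.9 in shscr-ctr, with overlap (log2 0.014, 95% interval -0.068 to 0.10, limma adjusted p = 0.800). Its sign changed to a log2 of -0.011 without shNumb-ctr replicate 3 and -0.0073 without shscr-ctr replicate 3. In the NDC80 complex, the main microtubule coupler of the kinetochore, 0 of 4 genes passed and all 4 overlapped between the groups. Ndc80, Nuf2, Spc24 and Spc25 had log2 fold changes of -0.16, -0.078, -0.056 and 0.012, with limma adjusted p of 0.161, 0.320, 0.674 and 0.913. The sign of Spc25 changed to a log2 of -0.055 without shNumb-ctr replicate 2. Leaving out shNumb-ctr replicate 2 brought Ndc80 to a limma adjusted p of 0.0421.

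Kinesins, the motors of the spindle, were the group with the highest share of calls, with 6 of 7 lower (85.7%, against 10.7% of all genes tested) and 0 higher. Their median log2 fold change was -0.24. Kif20a, the motor that brings the passenger complex to the midzone, was at 23.4, 23.7 and 21.5 FPKM in shNumb-ctr and 28.5, 28.3 and 27.2 in shscr-ctr. The groups did not overlap (log2 -0.28, SE 0.045, limma adjusted p = 0.00590), and 31.1% of its windows are shared with other genes, mainly Cdc23, so its level is uncertain. Kif4, a chromosome-bound motor that shortens midzone microtubules, was at 6.82, 6.57 and 6.32 FPKM in shNumb-ctr and 8.10, 8.03 and 7.90 in shscr-ctr (log2 -0.25, SE 0.048, limma adjusted p = 0.0115). All 3 shscr-ctr values of Kif4 were above those of shNumb-ctr. Kif11, the motor Eg5 that pushes the spindle poles apart, was at 21.4, 21.6 and 19.3 FPKM in shNumb-ctr and 26.2, 23.98 and 25.9 in shscr-ctr, with shNumb-ctr replicate 3 lowest (log2 -0.28, SE 0.054, limma adjusted p = 0.0121).

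The other kinesins that fell were Kif2c, a microtubule depolymerase at centromeres, Kif20b, of late cytokinesis, and Kif22, a motor on chromosome arms, with log2 fold changes of -0.20, -0.24 and -0.19 and limma adjusted p of 0.0186, 0.0203 and 0.0231. Kif2c lost its call without shNumb-ctr replicate 1 or 3 or shscr-ctr replicate 1 or 3 (limma adjusted p = 0.0511 to 0.0665). Kif20b lost its call without shNumb-ctr replicate 1 or 3 or shscr-ctr replicate 1 or 3 (limma adjusted p = 0.0503 to 0.0706). Kif22 lost its call without shNumb-ctr replicate 1 or 3 or shscr-ctr replicate 1 or 2 (limma adjusted p = 0.0627 to 0.0727). Kif23, the motor subunit of centralspindlin, was the exception, at 22.6, 21.1 and 20.4 FPKM in shNumb-ctr and 21.8, 23.2 and 22.7 in shscr-ctr with overlap (log2 -0.077, limma adjusted p = 0.268). Whether the share of calls differs between kinesins and kinetochore genes was not tested. In wider lists the shares were alike. Of 14 other kinesins and spindle genes 3 were lower (21.4%), and of 35 other kinetochore and checkpoint genes 8 (22.9%).

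**Figure D3:**
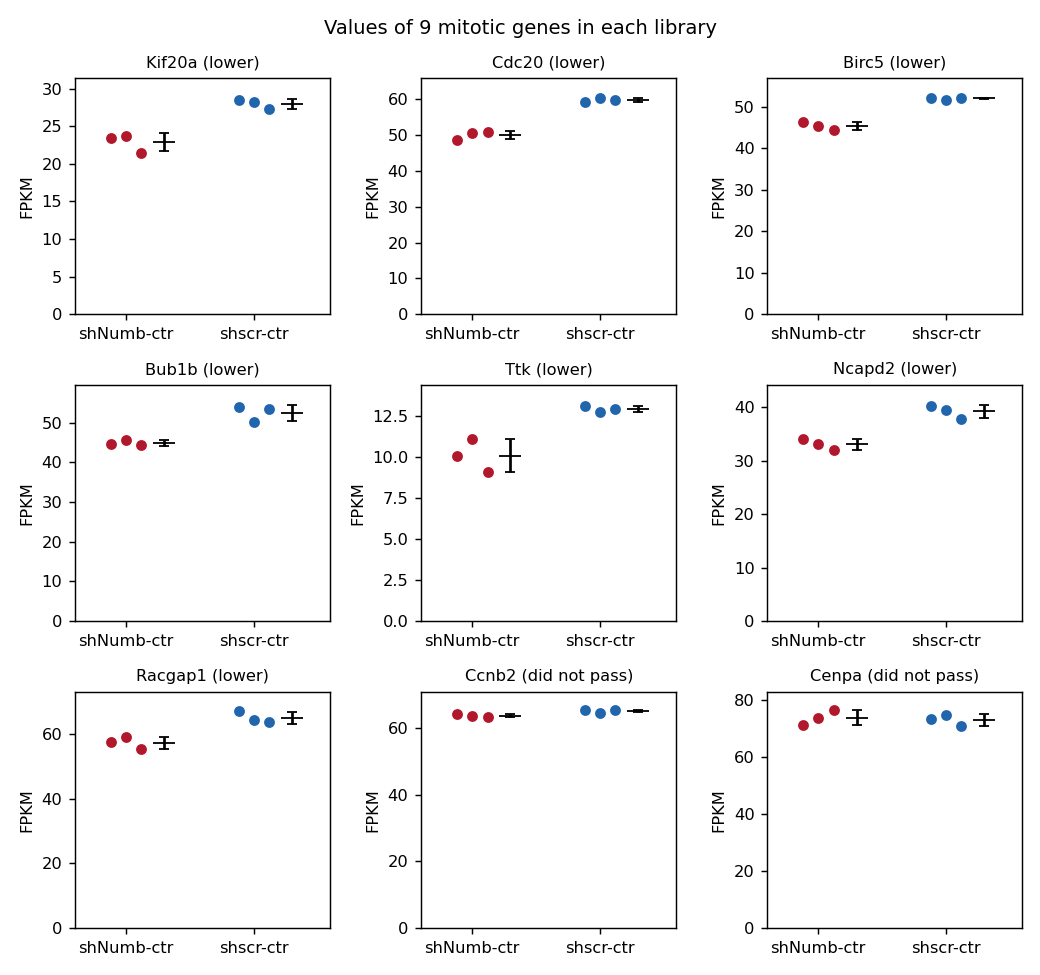
FPKM (y axis, from 0) of 9 mitotic genes in each library, with shNumb-ctr at the left and shscr-ctr at the right of each panel; points are libraries, and the black mark beside them is the mean with SD (n = 3). Kif20a, Cdc20, Birc5, Bub1b, Ttk, Ncapd2 and Racgap1 lie lower in every shNumb-ctr library, as does Ccnb2 by a log2 of -0.031, and Cenpa overlaps.

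Of 4 spindle assembly factors 1 fell (25%, against 10.7% of all genes tested) and 0 rose. Nusap1, which bundles microtubules near chromosomes, was at 14.9, 14.8 and 15.4 FPKM in shNumb-ctr and 17.4, 17.6 and 17.2 in shscr-ctr (log2 -0.20, SE 0.036, limma adjusted p = 0.00979), and the groups did not overlap. Tpx2, the activator of Aurka on the spindle, was at 52.8, 56.5 and 50.1 FPKM in shNumb-ctr and 60.9, 56.9 and 58.8 in shscr-ctr, where shNumb-ctr replicate 2 lay just below shscr-ctr replicate 2 (log2 -0.15, limma adjusted p = 0.0643, and 0.0272 without that shNumb-ctr library). Hmmr, a microtubule-binding hyaluronan receptor, and Ckap2, a spindle protein, had log2 fold changes of -0.13 and -0.0094 (limma adjusted p = 0.0966 and 0.945). Ckap2 changed sign to a log2 of 0.0070 after median-of-ratios rescaling and 0.0019 after quantile normalization.

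Of 4 cytokinesis genes 1 fell (25%, against 10.7% of all genes tested) and 0 rose. Racgap1, the GTPase-activating subunit of centralspindlin, was at 57.5, 59.05 and 55.4 FPKM in shNumb-ctr and 67.1, 64.4 and 63.8 in shscr-ctr, without overlap (log2 -0.18, SE 0.035, limma adjusted p = 0.0122). The ratio of Racgap1 to its partner Kif23 was 2.69 ± 0.126 in shNumb-ctr and 2.89 ± 0.165 in shscr-ctr (SD, n = 3 each), and the groups overlapped. Of 9 such ratios between partners or paralogs, 2 did not overlap between the groups. Bub1b to Bub3 was 0.956 ± 0.035 in shNumb-ctr and 1.07 ± 0.079 in shscr-ctr (log2 difference -0.17), and Ccnb1 to Ccnb2, with the uncertain level of Ccnb1, 0.724 ± 0.0049 in shNumb-ctr and 0.765 ± 0.028 in shscr-ctr (log2 difference -0.080; SD, n = 3 each). The smallest p an exact two-sided permutation test can give with 3 libraries a group is 0.10. That is also how often a ratio unrelated to the groups would show no overlap. No ratio could therefore pass the threshold, and the test decides nothing about them. Anln, anillin of the contractile ring, was at 15.8, 14.9 and 13.9 FPKM in shNumb-ctr and 17.6, 15.8 and 18.1 in shscr-ctr, with shNumb-ctr replicate 1 just above shscr-ctr replicate 2 (log2 -0.19, limma adjusted p = 0.0667, and 0.0340 without shscr-ctr replicate 2). Ect2, the exchange factor that activates RhoA at the furrow, and Prc1, the midzone bundler, had log2 fold changes of -0.15 and -0.086 (limma adjusted p = 0.121 and 0.153).

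Among the 7 genes of mitotic chromosome structure 4 fell (57.1%, against 10.7% of all genes tested) and 0 rose. In all 7 every shNumb-ctr library lay below every shscr-ctr library. Over all genes tested, 23.6% had that pattern. Ncapd2, a subunit of condensin I, was at 34.1, 33.2 and 32 FPKM in shNumb-ctr and 40.2, 39.5 and 37.9 in shscr-ctr (log2 -0.24, SE 0.037, limma adjusted p = 0.00574). Mki67, the proliferation marker Ki-67 that coats mitotic chromosomes, was at 27.4, 27.2 and 25.7 FPKM in shNumb-ctr and 31.7, 29.95 and 30.3 in shscr-ctr (log2 -0.19, SE 0.039, limma adjusted p = 0.0157). Top2a, topoisomerase II alpha, was at 42.9, 42.4 and 38.4 FPKM in shNumb-ctr and 50.6, 46.98 and 48.02 in shscr-ctr (log2 -0.23, SE 0.049, limma adjusted p = 0.0168). Mki67 lost its call without shscr-ctr replicate 1 (limma adjusted p = 0.0565). Top2a lost its call without shscr-ctr replicate 1 (limma adjusted p = 0.0584).

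All 5 condensin I genes had every shNumb-ctr library below every shscr-ctr library, a pattern of 23.6% of all tested genes. Of the 5 genes 2 passed. Beside Ncapd2 that was Smc2 (log2 -0.19, limma adjusted p = 0.0401). Smc2 lost its call without shNumb-ctr replicate 1 or 3 or shscr-ctr replicate 1, 2 or 3 (limma adjusted p = 0.0518 to 0.125). Its partner Smc4 was at 18.5, 17.9 and 16.6 FPKM in shNumb-ctr and 20.3, 18.6 and 20.8 in shscr-ctr and missed the threshold (log2 -0.16, limma adjusted p = 0.0809). Ncapg and Ncaph had log2 fold changes of -0.16 and -0.13 (limma adjusted p = 0.0900 and 0.0650). Leaving out shscr-ctr replicate 2 brought Smc4 and Ncapg to limma adjusted p of 0.0448 and 0.0445, and leaving out shNumb-ctr replicate 2 brought Ncaph to 0.0421.

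Levels per transcript length spanned 5.11 to 108 FPKM as means over the 6 libraries. Ube2c, Cks1b, Cenpa, Ccnb2, Racgap1, Cdc25b, Tpx2, Aurka and Cdc20 were above 50 FPKM, and Cenpf, Cdc25c, Kif4, Smc2, Ect2, Cenpe and Ckap2 below 10 FPKM. Calls fell at both ends of that range, at Kif4, Smc2 and Cenpe as well as at Racgap1, Aurka and Cdc20. Across the 53 genes the log2 fold change had a Spearman correlation of 0.15 with the level and of -0.46 with the length of the longest annotated transcript, a description over genes that share the same 6 libraries. Over 10390 tested genes with an annotated length the correlation with length was -0.13. After a correction of each library for transcript length and GC content, chosen after seeing the data, 29 of the 53 genes were lower and 0 higher, with a median log2 fold change of -0.15. Ccnb1, Cks1b, Aurkb, Ube2c, Hmmr, Smc4 and Ncaph passed there and Foxm1 did not.

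The remaining mitotic machinery was covered by 7 lists of 110 genes together. Of the 110, 23 fell (20.9%) and 1 rose, with a median log2 fold change of -0.10. Over all genes tested, 10.7% were called lower and 8.11% higher. Mybl2, the B-Myb factor that works with MuvB on the promoters of these genes, had the most negative value of the 110, at 39.4 ± 0.285 FPKM in shNumb-ctr and 49.98 ± 1.96 in shscr-ctr (SD, n = 3 each, log2 -0.34, SE 0.035, limma adjusted p = 0.00137), and with 23.8% shared windows it is uncertain. Beside it, Rbbp4 fell of the 12 MuvB and DREAM genes (log2 -0.16), and 0 rose. That share of 16.7% lower stood near the 10.7% of all genes tested. In the list of cohesin and condensin II, which hold and fold sister chromatids, 7 of 13 genes fell and 0 rose. These were the cohesin genes and regulators Smc1a, Smc3, Stag2, Wapl, Pds5a and Cdca5, with Cdca2, a phosphatase subunit on chromatin, and the smallest adjusted p were at Smc3 and Pds5a (log2 -0.32 and -0.26, limma adjusted p = 0.00647 and 0.0141). The 3 condensin II genes Ncapd3, Ncapg2 and Ncaph2 did not pass (log2 -0.13, -0.18 and -0.076, limma adjusted p = 0.152, 0.0654 and 0.128). With 31.9% shared windows, Ncaph2 is uncertain. Of 35 further kinetochore and checkpoint genes 8 fell and 0 rose, with the smallest adjusted p at Hjurp, the chaperone that loads Cenpa, and Pmf1 of the Mis12 complex (log2 -0.26 and -0.24, limma adjusted p = 0.00235 and 0.00269).

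Of 14 further kinesins and spindle genes 3 fell (21.4%) and 0 rose, with the smallest adjusted p at Kif15 and Tacc3 (log2 -0.28 and -0.20). The anaphase-promoting complex itself, with Ube2s, had 2 of 15 genes lower and 0 higher, Anapc5 and Ube2s (log2 -0.16 and -0.14). That share of 13.3% lower stood near the 10.7% of all genes tested. Of 14 other entry regulators Gtse1 fell (log2 -0.17), a share of 7.14%, below that of all genes tested. Of 7 other cytokinesis genes Rhoa, the GTPase of the furrow and of many other actin structures, rose (log2 0.11, limma adjusted p = 0.0280), and 0 fell. That share of 14.3% higher rests on 1 gene, against 8.11% of all genes tested. The count of the 110 called lower was 14 and 11 when shNumb-ctr replicate 1 or 3 was left out and 7 and 15 when shscr-ctr replicate 1 or 3 was, against 18 without shNumb-ctr replicate 2 or shscr-ctr replicate 2. Over all genes tested the share called lower in these fits was 4.41% to 8.26%, against 10.7% with all libraries. The calls of Mybl2, Hjurp, Pmf1, Smc3, Pds5a and Anapc5 held with each of the 6 libraries left out in turn. Kif15 and Tacc3 lost theirs without shscr-ctr replicate 1, Rbbp4 and Ube2s lost theirs in 4 of the 6 fits, and Gtse1 and Rhoa in 5 of the 6, Gtse1 keeping it only without shscr-ctr replicate 3 and Rhoa only without shscr-ctr replicate 1.

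For the preceding phase, 56 genes that act in G1/S or in copying DNA included 23 that fell (41.1%) and 1 that rose (1.79%). Over all genes tested 10.7% were called lower and 8.11% higher. The median log2 fold change of the 56 was -0.14. Uhrf1, which maintains DNA methylation at the replication fork, averaged 39.9 ± 0.354 FPKM in shNumb-ctr and 50.5 ± 0.799 in shscr-ctr (SD, n = 3 each, log2 -0.33, limma adjusted p = 7.03e-04), and the helicase subunit Mcm5 had a log2 fold change of -0.33. The exception was Ccnd1, cyclin D1, at 45.02 ± 2.97 FPKM in shNumb-ctr and 39.3 ± 1.09 in shscr-ctr (SD, n = 3 each, log2 0.19, limma adjusted p = 0.0339), with 27.3% shared windows. That call was lost in 5 of the 6 fits that left out a library and held only without shNumb-ctr replicate 2, whereas those of Uhrf1 and Mcm5 held in all 6. The mitotic and the G1/S genes were not tested against each other. Of 16 tested genes that brake the cell cycle, Cdkn1c, Cdkn2d and Cdkn2b rose (log2 0.53, 0.21 and 0.41, limma adjusted p = 0.0277, 0.0287 and 0.0402) and Trp53 fell (log2 -0.15, limma adjusted p = 0.0112). The other 12 did not pass. The shares were 18.75% higher and 6.25% lower, against 8.11% higher and 10.7% lower over all genes tested. The Trp53 call held in all 6 such fits, those of Cdkn1c and Cdkn2d were lost in 4 of the 6 and that of Cdkn2b in 5 of the 6. Cdkn1c averaged 3.82 ± 0.733 FPKM in shNumb-ctr and 2.32 ± 0.429 in shscr-ctr (SD, n = 3 each), and 26.9% of its windows are shared. Cdkn1a, the p53 target p21, was at 58.8 ± 0.985 FPKM in shNumb-ctr and 61.3 ± 1.497 in shscr-ctr and did not pass (SD, n = 3 each, log2 -0.059, limma adjusted p = 0.209).

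Over all 53 genes, 10 kept their call in every one of the 15 alternatives run for them: Birc5, Bub1b, Ttk, Cdc20, Kif11, Kif20a, Kif4, Nusap1, Racgap1 and Ncapd2. The share of the 53 called lower ran from 18.9% to 54.7% over those alternatives, and that of all genes tested from 4.41% to 14.0%.

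**Figure D4:**
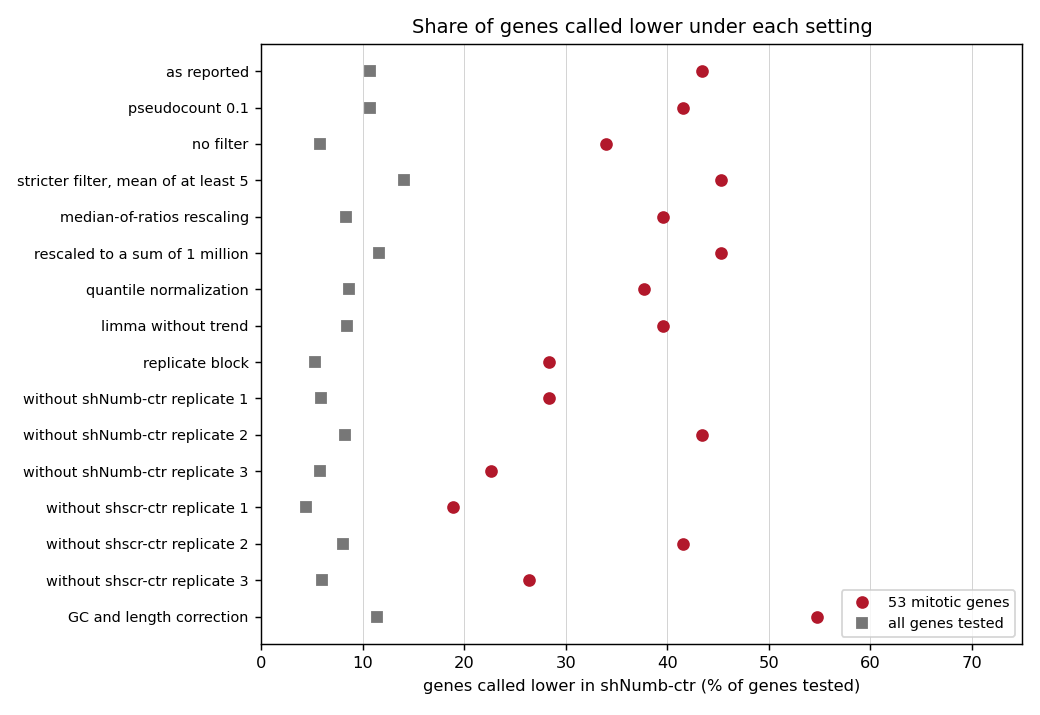
Share of genes called lower in shNumb-ctr (x axis, % of genes tested) as reported and under each alternative (rows), for the 53 mitotic genes (red circles) and for all genes tested (grey squares). The red circles lie between 18.9% and 54.7% and the grey squares between 4.41% and 14.0%.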

How the data were processed

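RNA of 6 libraries of BV2 cells was sequenced after TRIzol extraction, per the labels' protocols. The authors deposited 1 fractional value per gene and library with no unit in the header, read here as FPKM, although TPM cannot be told apart from it. CASAVA and DESeq2 are named without role or version, per the submitters' processing notes. No source used here names the aligner, the build or the annotation, and the depth behind a value is unknown.

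Genes with at least 1 FPKM in at least 3 libraries were tested on log2(FPKM + 1), a scale that understates the change of low genes, in limma 3.58.1 with a mean-dependent prior (R 4.3.3). The test was two-sided, with Benjamini-Hochberg adjustment over the 10594 genes. It was also run on simulated data with 200 genes changed. In the real data 1989 genes were called, a different setting, so that run does not measure how many calls here are false. Intervals are limma's 95% intervals. The members and all lists were chosen with earlier results of these data known. Every mitotic gene is accounted for, with full statistics for at most 3 called genes per functional group by smallest adjusted p, with library values for those, for the extremes and for paralogs that differ in call, and with at most 2 genes per direction from each other list. The library values of Cdk1, Ccnb1, Ccnb2, Mad2l1, Cenpa, Tpx2, Anln and Kif23, the fold change of Cdkn2b, the group means of Cdkn1a, and the cohesin and condensin II genes other than Smc3 and Pds5a were added after the values were seen.

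Transcript windows of 50 bases, every 10 bases along the longest transcript, were looked up on both strands in all other genes of GENCODE M21 (GRCm38), and a gene with over 20% of them shared is called uncertain. Promoters came from RefSeq (GRCm38.p6, Python 3.11.15). Alternatives were another pseudocount, filter, scaling and prior, a replicate block, each library left out, a length and GC correction, and the genes without shared sequence; the last pair was chosen after seeing the data.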

Additional observations from a re-analysis of the deposited data

How the results depend on the processing

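Of 795 values of the 53 mitotic genes under 15 alternatives, 684 kept direction and side of the threshold, 74 lost the call, 19 gained it and 18 changed sign, none of these in a called gene. With no filter on low values, 15 of the other mitosis genes were lower and 0 of the G1/S genes higher. In limma without trend, 15 of the G1/S genes were lower, and 0 of the other mitosis genes and 0 of the G1/S genes higher. In deviations from the group means, same-numbered libraries had correlations of 0.0067, 0.012 and 0.047, and differently numbered ones of -0.088 to 0.066. Deviations from means of 3 libraries are tied to each other, so these values cannot decide whether replicate numbers pair the samples. With the replicate block 559 of all genes were lower and 520 higher, 15 of the 53 mitotic genes lower, 9 of the other mitosis genes lower and 0 higher, and 14 of the G1/S genes lower and 0 higher. With 1 library left out, 465 to 869 of all genes were lower and 499 to 671 higher, 10 to 23 of the mitotic genes lower and 0 to 0 higher, 7 to 18 of the other mitosis genes lower and 0 to 1 higher, and 13 to 20 of the G1/S genes lower and 0 to 1 higher, with a mitotic median of -0.17 to -0.13. Without the genes of shared sequence 22 of 49 mitotic genes were lower. Of all calls 43.2% were higher, against 53% after median-of-ratios rescaling and 50.8% after quantile normalization, which also moved Cdc25b to 0.0078 and 0.0077 and Ckap2 to 0.0070 and 0.0019 (log2), and quantile normalization moved Cdk1 to 0.0010. With each library left out in turn, 7 genes that were not called changed sign: log2 fold changes ran from -0.040 to 0.010 for Cdk1, -0.019 to 0.0042 for Cdc25b, -0.0098 to 0.075 for Cdc25c, -0.047 to 0.17 for Pttg1, -0.011 to 0.040 for Cenpa, -0.055 to 0.071 for Spc25 and -0.080 to 0.078 for Ckap2. After the length and GC correction Cdc25b was at 0.0017 and Spc25 at -0.0094. The cause of these changes was not tested. With no counts, the precision of low genes could not be set against depth.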
